A study of Oryza sativa Japonica Group with 6 samples.

Results

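The high-affinity nitrate uptake genes NRT2 and NAR2 were followed in roots of 10-day-old rice seedlings after 1 h without nitrogen. They were taken as all probe sets of genes whose symbol or synonym in the gene annotation starts with NRT2 or NAR2, with a leading Os ignored. The annotation held 5 such genes, NRT2.1 (LOC4328051), NRT2.2 (LOC4328052), NRT2.3 (LOC4324249), NAR2.1 (LOC4329861) and NAR2.2 (LOC4336175). Of these, NRT2.2, NRT2.3 and NAR2.2 each had 1 probe set, which gave 3 of the 17905 genes with a probe set, or 3 of 57194 probe sets. NRT2.1 and NAR2.1 had no probe set tied to them by name, and NRT2.4 had no match by name, so these 3 genes are not analysed here. All values below therefore concern NRT2.2, NRT2.3 and NAR2.2.

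The seedlings were of the japonica cultivar TNG67, without any transgene or mutation named, and were grown in hydroponic solution with ammonium nitrate. The −N group spent 1 h in that solution with ammonium nitrate left out (3 arrays), and the +N group had ammonium nitrate throughout (3 arrays). Total RNA of whole roots was hybridised to Affymetrix rice arrays, which give 1 value per probe set, a set of short probes for a transcript. The labels and the Methods differ on whether +N seedlings were moved as well, +N replicate 3 is also labelled with 0.5 h, and −N replicates 1 and 2 are titled as reanalysed.

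Rice roots take up nitrate by a low-affinity and a high-affinity system. NRT2 proteins are plasma membrane carriers of the high-affinity system that move nitrate inward together with protons, and they work at low external nitrate. Several of them carry nitrate only together with a small partner protein of the NAR2 family. In rice, NAR2.1 is the known partner of NRT2.1, NRT2.2 and of a splice form of NRT2.3, and NRT2.3 is known for the transport of nitrate from root to shoot. NRT2.1 and NRT2.2 are known to share their coding sequence, and in the annotation they are direct neighbours with 0 genes between them.

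The identity of the probe sets limits what each value stands for. The probe sets of NRT2.2 (Os.49093.2.S1_x_at) and NRT2.3 (Os.29842.1.S1_x_at) carry the suffix x, by which the manufacturer marks probe sets with probes that may also bind other, similar transcripts. The value of NRT2.2 may thus include transcripts of NRT2.1, and that of NRT2.3 cannot be divided between its splice forms. The probe set of NAR2.2 (Os.56184.1.S1_at) carries no such mark. Intensities of different probe sets are not compared with each other below, since each probe set has its own response.

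After 1 h of −N, none of NRT2.2, NRT2.3 and NAR2.2 passed the test, and for each of them the arrays of −N and +N overlapped. NRT2.2 had nearly the same geometric mean in both groups, NRT2.3 was 1.23-fold of +N and NAR2.2 was 0.873-fold of +N. All 3 differences between group means were smaller than the SD of the +N arrays. Of all 57194 probe sets, 0% passed as higher and 0.00699% as lower in −N with an adjusted p under 0.05 (limma without a block for replicate number, Benjamini-Hochberg adjustment over all probe sets). In this fit 0 of 3 is thus also what nearly any probe set showed. At an unadjusted p under 0.05 it gave 0 of 3, against 1.29% of all probe sets higher and 1.76% lower. With the block described below, 0.332% passed after adjustment as higher and 0.393% as lower, again with 0 of 3. Groups that did not overlap were found for 0 of 3, against 5.89% of all probe sets, and a change of at least 2-fold for 0 of 3, against 1.05%.

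NRT2.2, one of the carriers that depend on NAR2.1, had intensities of 228, 250 and 245 in −N replicates 1, 2 and 3, against 323, 244 and 186 in +N replicates 1, 2 and 3. The −N arrays lay close together, within 1.09-fold of each other, and inside the range of the +N arrays, which spanned 1.74-fold. The means were 241 ± 11.2 in −N and 251 ± 68.9 in +N (SD, n = 3 each). On the log2 scale the change was −0.024 (SE 0.23, adjusted p = 1 in limma). Its 95% interval ran from −0.56 to 0.52, or from 0.677-fold to 1.43-fold, which leaves out a 2-fold change in either direction, the cutoff used in the study.

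The pairs of equal replicate number did not share a direction for NRT2.2. In replicate 1 the log2 ratio of −N to +N was −0.50, in replicate 2 it was 0.035 and in replicate 3 it was 0.40. The near-zero mean was thus made of a pair that was lower, a pair that was almost level and a pair that was higher. The sign of the mean rested on replicate 1. Without +N replicate 1 the log2 fold change was 0.18, and without −N replicate 1 it was 0.015.

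NRT2.3 had intensities of 42.3, 123 and 74.1 in −N replicates 1, 2 and 3, against 42.3, 89.4 and 55.6 in +N replicates 1, 2 and 3. In both groups replicate 2 was highest and replicate 1 lowest, with a range of 2.92-fold in −N and 2.12-fold in +N. The means were 79.9 ± 40.9 in −N and 62.4 ± 24.3 in +N (SD, n = 3 each). On the log2 scale the change was 0.29 (SE 0.42, adjusted p = 1 in limma), with a 95% interval of −0.69 to 1.27. This interval leaves out a 2-fold decrease but holds a 2-fold increase, so this test could not tell an increase of that size from no change.

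Within pairs, NRT2.3 varied much less than across arrays. The log2 ratio of −N to +N was 0.00, 0.46 and 0.41 in replicates 1, 2 and 3, so −N was higher in 2 pairs and level with +N in the pair of replicate 1. A block for replicate number in limma, which gives each pair its own level, brought the SE to 0.13, and the 95% interval ran from −0.014 to 0.60, or from 0.990-fold to 1.52-fold, which leaves out a 2-fold change in both directions. NRT2.3 did not pass with the block either (adjusted p = 0.419, unadjusted p = 0.0586 in limma). With the block, 0.332% of all probe sets passed as higher and 0.393% as lower, and 0 of the 3 NRT2 and NAR2 probe sets were among them. Leaving out 1 array breaks a pair. Without −N replicate 2 the bright replicate 2 stayed in +N only, and the unblocked value was −0.088. That value was 0.69 without −N replicate 1, 0.59 without +N replicate 2 and 0.047 without +N replicate 1. With the block, leaving out a whole replicate number gave 0.21 to 0.44.

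The 2 arrays of replicate 1 held the same value for NRT2.3 to the last deposited digit. Such equal values were common within pairs of one number, with 1866, 2181 and 1888 probe sets for replicates 1, 2 and 3, and there were 0 between any other 2 arrays. In all, 9.88% of the probe sets had an equal value in 1 or more pairs. The sorted values of the 2 arrays of a pair also differed by at most 0.0957 to 0.113 on the log2 scale, against 0.0986 to 0.571 for any other 2 arrays. How the arrays were scaled to each other is not given in the sources used here. What part these equal values, or any scaling by pair, have in the shares by replicate number and in the smaller SEs with the block was not tested.

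NAR2.2, a relative of the partner gene NAR2.1, had intensities of 60.7, 61.9 and 54.2 in −N replicates 1, 2 and 3, against 82.2, 65.9 and 56.5 in +N replicates 1, 2 and 3. All −N arrays lay below the 2 higher +N arrays, and 2 of them lay above +N replicate 3. The means were 58.9 ± 4.16 in −N and 68.2 ± 13.0 in +N (SD, n = 3 each). By mean intensity NAR2.2 stood at percentile 61.1 of all probe sets and NRT2.3 at 62.9, and the array medians were 33.3 to 35.2. How far these 2 probe sets stood above background was not tested, so the intervals concern intensities only. On the log2 scale the change was −0.20 (SE 0.20, adjusted p = 1 in limma), with a 95% interval of −0.67 to 0.27, which leaves out a 2-fold change in either direction. Such an interval was found for 2 of the 3 probe sets, against 83% of all probe sets, and for 3 of 3 with the block for replicate number, against 96.2%. Of the 3 probe sets, NAR2.2 alone had a −N array below its +N array in every pair, with log2 ratios of −0.44, −0.090 and −0.061 in replicates 1, 2 and 3, as had 15% of all probe sets. In limma with the block it did not pass (adjusted p = 0.607, SE 0.12), and without +N replicate 1 its log2 fold change was −0.053.

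**Figure D1:**
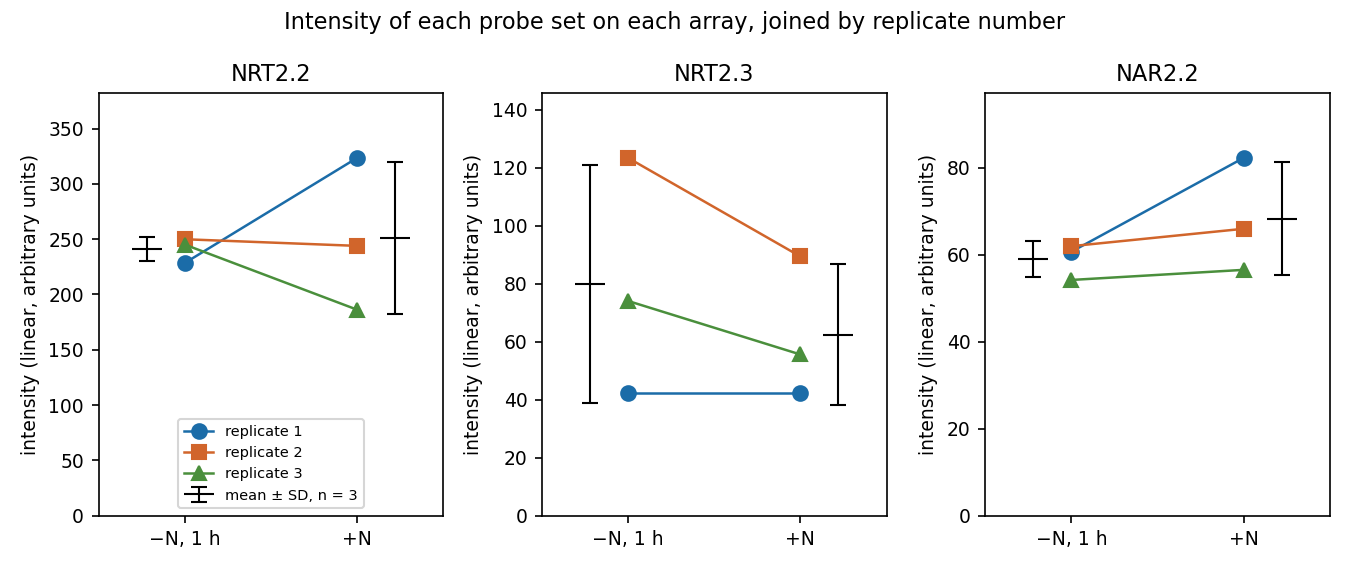
Linear intensity of the NRT2.2, NRT2.3 and NAR2.2 probe sets on each of the 6 arrays, with −N on the left and +N on the right; lines join arrays of the same replicate number and black bars are means ± SD (n = 3). For each gene the groups overlap, the 2 replicate 1 arrays of NRT2.3 both read 42.3, and the highest NRT2.2 and NAR2.2 values, 323 and 82.2, are both on +N replicate 1.

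**Figure D2:**
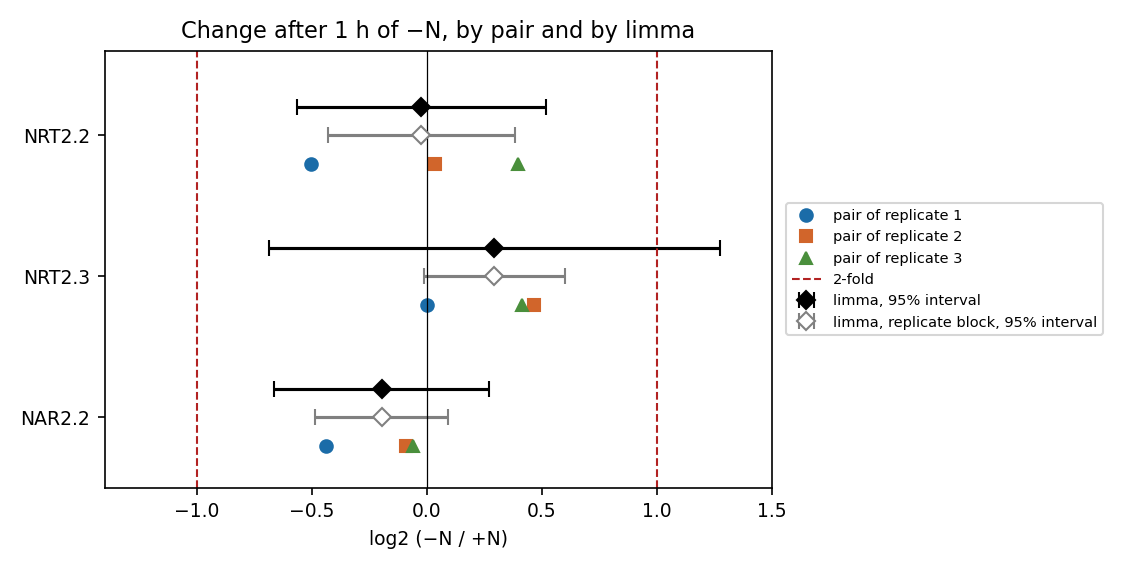
Log2 ratio of −N to +N for each gene, with coloured symbols for the pairs of equal replicate number, black diamonds for the limma estimate and open diamonds for the same estimate with the replicate number as a block (bars are 95% intervals, dashed lines a 2-fold change). Every interval includes 0, and that of NRT2.3 without the block, −0.69 to 1.27, is the one that crosses a 2-fold line.

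The 3 genes differed in which part of their variation lay between treatments and which between replicate numbers. For NRT2.3, 89.9% of the sum of squares of the log2 intensities lay between replicate numbers, 6.69% between −N and +N and 3.38% in the rest. For NAR2.2 these shares were 55.1%, 25.5% and 19.5%. For NRT2.2 they were 37.4%, 0.253% and 62.3%, so that most of its variation lay in the disagreement between pairs. The medians over all probe sets were 78.6%, 5.11% and 9.79%. The SD of the pair log2 ratios was 0.45 for NRT2.2, 0.25 for NRT2.3 and 0.21 for NAR2.2, against a median of 0.19 over all probe sets. Over the 6 arrays the log2 intensities of NRT2.2 and NAR2.2 had a Pearson correlation of 0.808, whereas NRT2.3 had −0.0909 with NRT2.2 and −0.306 with NAR2.2. These coefficients describe 6 arrays that share a replicate number in pairs, and no test was made on them.

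The array of +N replicate 1, which held the highest value of NRT2.2 and of NAR2.2, also stood out in shoot genes. The summed intensity of 14 probe sets of 7 photosynthesis genes used as shoot markers was 13854.5, 22941 and 20764 in −N replicates 1, 2 and 3, against 52721, 27867 and 34776 in +N replicates 1, 2 and 3. On every array 12 of the 14 probe sets lay above the median of the array. Of the 14, 0 had an unadjusted p under 0.05 as higher and 7 as lower in −N, against 1.29% and 1.76% of all probe sets. With the replicate block 0 were higher and 12 lower, against 7.07% and 5.71% of all probe sets, and 0 of the 14 passed after adjustment in limma, with or without the block. After adjustment, 0% of all probe sets passed as higher and 0.00699% as lower without the block, and 0.332% and 0.393% with it. The summed intensity of 16 probe sets of 13 root marker genes, such as the silicon transporter genes Lsi1 and Lsi2, was 22723, 29744 and 27119 in −N replicates 1, 2 and 3, against 24843, 35996 and 33985 in +N replicates 1, 2 and 3. This sum was lower in −N in all 3 pairs, but bright probe sets weigh most in it. Lsi1 alone read 11842 in −N replicate 1 and 13192 in +N replicate 1. The median log2 fold change was 0.076 for the 16 root probe sets, against −1.03 for the 14 shoot probe sets. On each array 13 or 14 of the 16 lay above the median of the array. Of the 16, 0 passed without the block and 1 was higher with it, against 0.332% of all probe sets higher with it. This was the iron transporter gene IRT1 (log2 fold change 2.01, adjusted p = 0.0165 with the block in limma, and 0.162 without replicate number 3). The study lists IRT1 as induced by nitrogen starvation, after qRT-PCR. Whether the transcripts of these photosynthesis genes came from shoot tissue or from root cells was not tested. Nor was the part of any shoot RNA in the values of NRT2.2 and NAR2.2. In whole roots, fewer cells of a type and less RNA per cell cannot be told apart.

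Genes whose pattern was most like that of each nitrate uptake gene were sought among 2107 genes with a name and a mean intensity at or above the median probe set, by Pearson correlation of the log2 intensities over the 6 arrays. A gene with several probe sets was represented by the one with the highest correlation. For NAR2.2 the nearest were rcaA1, which encodes Rubisco activase and is one of the shoot markers (r = 0.989), SPO11-3 (r = 0.984) and HSP18.1, a small heat shock protein gene (r = 0.980). Each of these had its highest value on +N replicate 1, as NAR2.2 had. For rcaA1 that value was 2621, against 310 to 721 on the other arrays. The coefficients are the highest of many over 6 arrays, and no test was made on them. For NRT2.2 the nearest were SAT1 (r = 0.938), MRS2-A of the MRS2 magnesium transporter family (r = 0.913) and LSD1 (r = 0.899). For NRT2.3 the nearest were GT43H, a glycosyltransferase family gene (r = 0.994), SPX1, a gene of phosphate signalling (r = 0.990), and CKX4, a cytokinin oxidase gene (r = 0.989). GT43H read 108.8 on both replicate 1 arrays, as NRT2.3 read 42.3 on both. A high correlation was common for NRT2.3, which had 316 genes at 0.9 or above, against 16 for NAR2.2 and 2 for NRT2.2. The intensities of CKX4 followed the replicate numbers as those of NRT2.3 did, with 42.3, 134 and 78.3 in −N replicates 1, 2 and 3, against 46.6, 91.3 and 66.3 in +N replicates 1, 2 and 3.

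Other genes of nitrate use were measured on the same arrays, chosen by symbol. Nitrate reductase, which reduces the nitrate brought in by NRT2 carriers, was represented by NIA1 with 2 probe sets. One of them had intensities of 128, 612 and 343 in −N replicates 1, 2 and 3, against 1436, 3180 and 2247 in +N replicates 1, 2 and 3. The other was dim, at 31.0 to 44.8 over the 6 arrays, near the array medians of 33.3 to 35.2, and had a log2 fold change of 0.0084. The first had a log2 fold change of −2.86 and did not pass (SE 0.55, adjusted p = 0.449 in limma), and it passed with the block (adjusted p = 0.00428). Of 11 probe sets of 9 nitrate regulator genes, 0 were higher and 1 was lower in −N, against 0% and 0.00699% of all probe sets. With the block 1 was higher (NLP1, adjusted p = 0.0326) and 2 were lower (NIGT1, adjusted p = 0.00163, and MADS25, adjusted p = 0.0392), against 0.332% and 0.393% of all probe sets. Without replicate number 3 the calls with the block were lost for NIA1 (adjusted p = 0.0898), NLP1 (adjusted p = 0.253) and MADS25 (adjusted p = 0.284), and without number 2 for NLP1 (adjusted p = 0.0846) and MADS25 (adjusted p = 0.0918). The one that fell without the block was NIGT1, which encodes a nitrate-inducible repressor, at 36.8, 39.1 and 36.4 in −N replicates 1, 2 and 3, against 147, 146 and 148 in +N replicates 1, 2 and 3 (log2 fold change −1.97, SE 0.16, adjusted p = 0.0482 in limma). This call was lost in all 6 fits that left out 1 array (adjusted p = 0.0645 to 0.361 in limma), after median centring (adjusted p = 0.0530) and with a variance trend (adjusted p = 0.0522), and with the block it passed in all 3 fits that left out a replicate number (adjusted p = 0.00755 to 0.0474). The 3 −N arrays of NIGT1 lay well apart from its 3 +N arrays, unlike those of NRT2.2, NRT2.3 and NAR2.2. After qRT-PCR, the study lists NIGT1 and nitrate reductase genes as repressed by nitrogen starvation, and NLP1 as induced. MADS25 is not named in either list.

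Of 10 probe sets of 8 ammonium transporter genes and 6 probe sets of 5 genes of ammonium assimilation, 0 passed in either direction, with or without the block. Of all probe sets, 0% passed as higher and 0.00699% as lower without the block, and 0.332% and 0.393% with it. The ammonium transporter probe sets ran from −1.85 for AMT1;2 to 0.83 for AMT3;2 on the log2 scale, with a median of 0.00066. AMT1;2 read 1887, 619 and 1166 in −N replicates 1, 2 and 3, against 3249, 4770 and 4082 in +N. Its groups did not overlap, as for 5.89% of all probe sets (adjusted p = 0.561 in limma, 0.0783 with the block). The study lists AMT1;2 among the genes repressed by nitrogen starvation, after qRT-PCR. Those of assimilation ran from −0.77 for the glutamate synthase gene GLT2 to 0.71 for the glutamine synthetase gene GLN1;3, with a median of −0.23. The median of the regulators was −0.29 and that of all probe sets was −0.0028, with 95% of all probe sets between −0.54 and 0.49. The log2 fold changes of NRT2.2, NRT2.3 and NAR2.2 all lay in this central range. No gene of the NRT1/NPF family, of plasma membrane proton pumps or of anion channels was matched by symbol. Gene descriptions were not searched, so such genes may still be on the array. The study lists nitrate transporter genes of the NRT1/NPF family among both its induced and its repressed genes. Its repressed genes also include a nitrite reductase and a further nitrate reductase, which the match by symbol did not find. Whether the NRT2 and NAR2 genes changed less than the other nitrogen genes measured here was not tested.

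**Figure D3:**
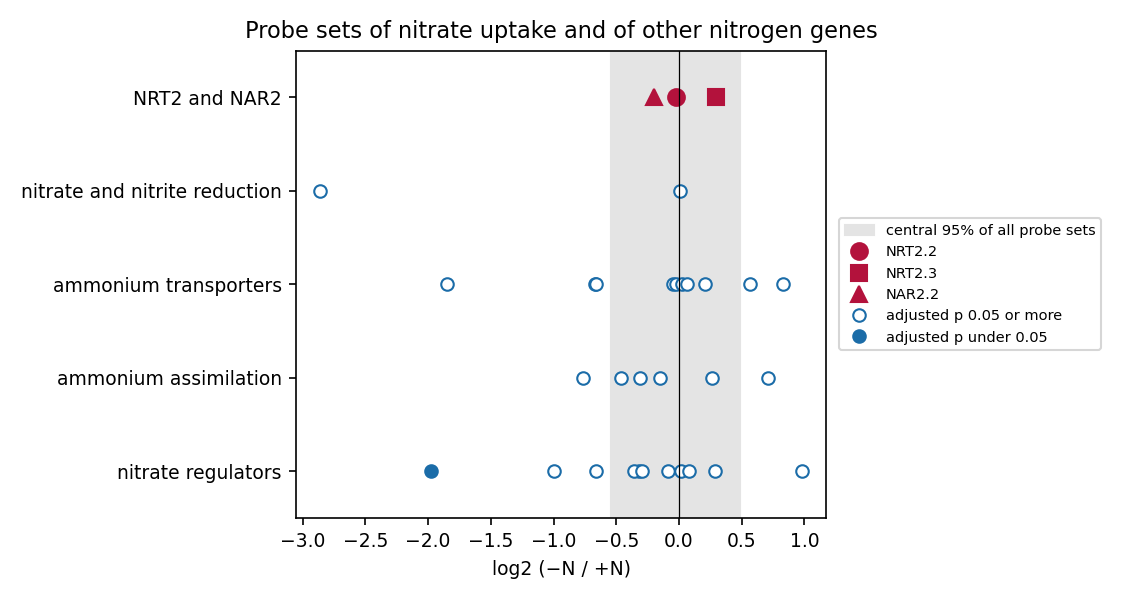
Log2 ratio of −N to +N of the NRT2 and NAR2 probe sets (red) and of probe sets of other nitrogen genes (blue, filled where adjusted p is under 0.05 in limma); the grey band holds the central 95% of all probe sets, −0.54 to 0.49. The 3 red symbols lie inside the band, as do 17 of the 29 blue ones, while 8 lie below it, among them NIA1 at −2.86 and NIGT1 at −1.97, and 4 above it, NLP1 at 0.98, AMT3;2 at 0.83, GLN1;3 at 0.71 and AMT3;3 at 0.57.

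**Figure D4:**
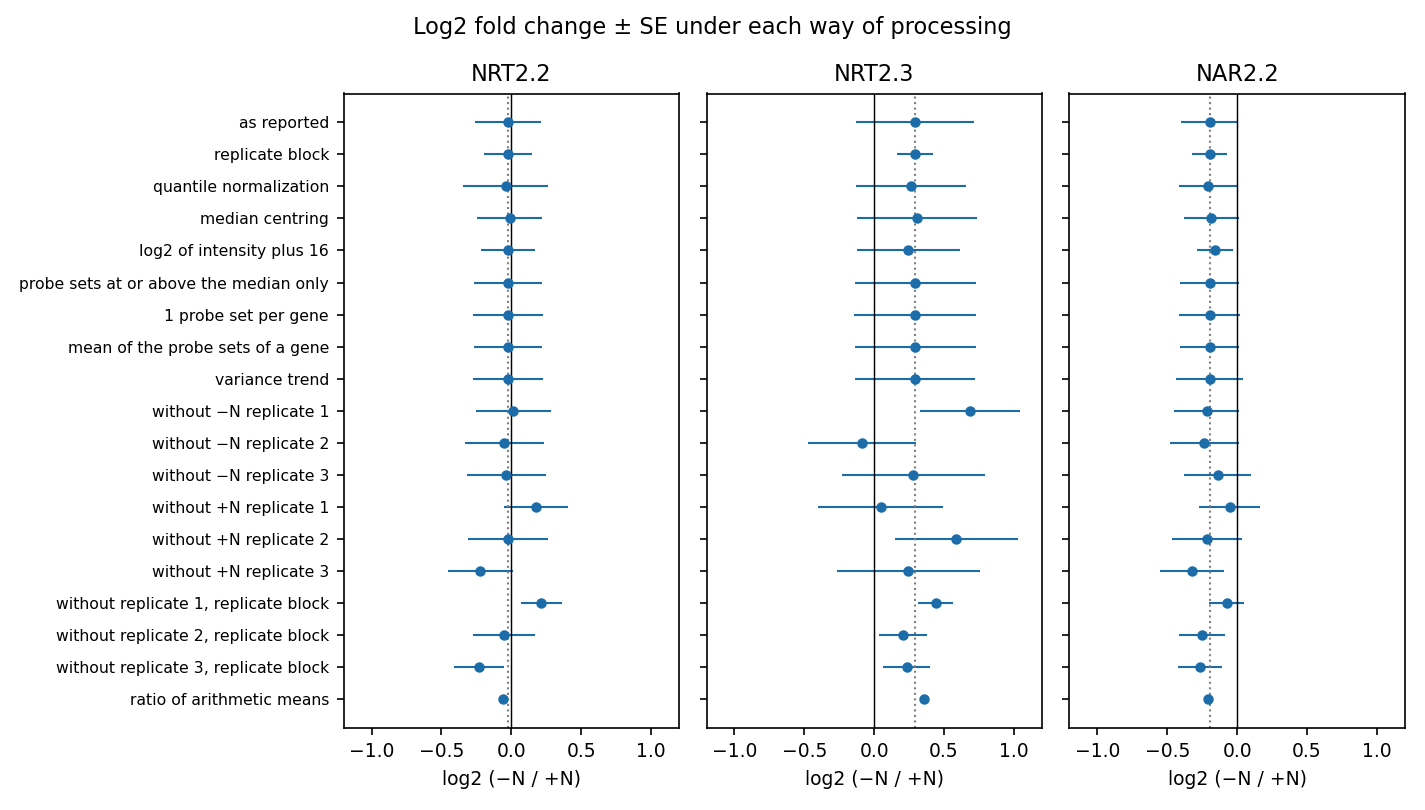
Log2 ratio of −N to +N of each gene under each way of processing, with bars for the SE of limma (none for the ratio of arithmetic means, which has no test) and a dotted line at the reported value. NRT2.2 moves above 0 where an array of replicate 1 is left out (0.015 and 0.18, and 0.22 without both and with the block), NRT2.3 falls to −0.088 without −N replicate 2, and NAR2.2 stays below 0 in every row.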

How the data were processed

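Total RNA of 6 root samples (3 of −N, 3 of +N) had been hybridised to 1 array each. For each probe set and array the authors deposited 1 linear intensity, made with GCOS and RMA according to the submitters' processing notes (role, order and version: not given in the sources used here). Intensities were taken to log2 without a pseudocount, and 187 control probe sets stayed out. The other 57194 entered a two-sided limma fit (version 3.58.1, lmFit and eBayes, R 4.3.3) of −N against +N, and p-values were adjusted over all of them by the Benjamini-Hochberg method, with a threshold of 0.05. Groups and replicate numbers came from the labels.

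Genes were named by the platform annotation (22436 probe sets with 1 symbol, 95 with several, 34850 with none) and by the RefSeq genes of assembly ASM3414082v1, from which only names and neighbours were taken. Probe sets with several symbols were not named. The text names every measured NRT2 and NAR2 probe set, in each list of other nitrogen genes those past the threshold or else the highest and the lowest, and the 3 genes with the highest correlation. Gene GRF4 (synonym GS2), PSAG (OSA15), PYL5 (RCAR5) and HCT3 (PHT1) matched a list by an ambiguous synonym and were left out. The members and lists were chosen with earlier results of these data known.

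Deviations from the group means correlated at 0.785, 0.664 and 0.653 between −N and +N arrays of numbers 1, 2 and 3, and at −0.547 to 0.0846 between unequal numbers, so the numbers were taken to pair the samples. This comes from the data, as the labels do not say what a number marks. Exactly equal values occurred only within these pairs, and their part in the correlations was not tested. The labels call the replicates biological but name no separate cultures, so the p-values reflect only how far these samples spread. The number of arrays limits the precision, and no detection calls were used. The code of the fit was also run on simulated arrays with normal noise, and no result above rests on that run. Alternatives were the replicate block, quantile normalization, median centring, a pseudocount of 16, a filter at the median probe set, genes as the unit, a variance trend, arithmetic means and leaving out arrays.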

Additional observations from a re-analysis of the deposited data

How the results depend on the processing

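None of the 3 NRT2 and NAR2 probe sets passed under any of the 17 other fits. With the replicate block the 3 log2 fold changes were the same and no NRT2 or NAR2 call changed, while 190 probe sets were higher and 225 lower, against 0 and 4 without it. Counts of higher and lower probe sets were 0 and 10 after quantile normalization, 0 and 2 after median centring, 4 and 15 with 1 probe set per gene, and 4 and 12 with the mean of the probe sets of a gene. Leaving out 1 array gave 0 to 1 higher and 0 to 1 lower, and leaving out a replicate number with the block gave 164 higher and 101 lower without number 1, 59 and 189 without number 2, and 1 and 21 without number 3. With the block, 1 probe set of nitrate reduction and 3 of the nitrate regulators passed, where 0.332% of all probe sets passed as higher and 0.393% as lower. Leaving out 1 array, the log2 fold change ran from −0.22 to 0.18 for NRT2.2, from −0.088 to 0.69 for NRT2.3 and from −0.32 to −0.053 for NAR2.2. Leaving out a replicate number with the block, these ran from −0.23 to 0.22, from 0.21 to 0.44 and from −0.26 to −0.075. NRT2.2 turned positive without replicate 1 (0.22 with the block), without +N replicate 1 (0.18) and without −N replicate 1 (0.015), and NRT2.3 turned negative without −N replicate 2 (−0.088). The cause was not tested.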

Other observations

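The array holds 2 more probe sets whose identifiers share the cluster number of the NRT2.2 probe set (Os.49093). They are unnamed in the annotation used here, and were singled out by their identifiers after their values were seen. Os.49093.1.S1_a_at had intensities of 430, 555 and 454 in −N replicates 1, 2 and 3, against 588, 521 and 340 in +N replicates 1, 2 and 3. Its log2 ratios of −0.45, 0.090 and 0.42 had the same order over the pairs as those of NRT2.2, −0.50, 0.035 and 0.40, and the 2 probe sets had a Pearson correlation of 0.900 over the 6 arrays. On the log2 scale it changed by 0.018 (SE 0.25, adjusted p = 1 in limma). Os.49093.1.S1_at was dim, with 15.8, 28.1 and 8.41 in −N replicates 1, 2 and 3, against 11.4, 10.6 and 6.43 in +N replicates 1, 2 and 3. It was higher in −N in all 3 pairs, as were 16.5% of all probe sets, and did not pass (log2 fold change 0.76, SE 0.44, adjusted p = 1, and 0.168 with the replicate block in limma).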
